A study of Mus musculus with 24 samples.

Results

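Chemokines are small secreted proteins that attract cells along a concentration gradient, and the 8 described here are Cxcl5, Cxcl1, Cxcl10, Cxcl12, Ccl2, Ccl3, Ccl4 and Ccl7. They were taken by name from a table of 55359 genes, and all 8 were found. The set is headed by Cxcl5, which was selected on its measured change with ethanol in these wells. The cells were oligodendrocytes from the cortex of C57Bl6J mouse pups aged postnatal days 5 to 7, sorted with magnetic beads for O4, a surface marker of immature oligodendrocytes. All wells were differentiated for 3 days, mainly by the thyroid hormone triiodothyronine (T3), before the 3 days of exposure. Experiment 1 (batch 1) had 6 wells at 30 mM ethanol and 6 control wells at 0 mM. Experiment 2 (batch 2) had 6 wells at 10 mM and 6 control wells at 0 mM. Controls stood in an incubator of their own, so the effect of ethanol cannot be told apart from that of the incubator. Each dose was used in 1 experiment, so dose cannot be told apart from experiment. The labels do not say which wells shared pups, so the p-values measure the spread between wells, which may be technical.

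Chemokine names follow the spacing of the first conserved cysteines, C-X-C or C-C, and each ligand acts through G protein-coupled receptors. Cxcl5 and Cxcl1 bind Cxcr2 and draw neutrophils; Cxcl10 binds Cxcr3 and draws activated T cells. Cxcl12 acts through Cxcr4 and is scavenged by Ackr3. Ccl2 and Ccl7 draw monocytes through Ccr2, while Ccl3 and Ccl4 are made in the brain mainly by microglia. Many of these genes are switched on by the transcription factor NF-κB downstream of interleukin 1 and tumor necrosis factor, and Cxcl10 also by interferon. In the central nervous system Cxcr2 is also found on cells of the oligodendrocyte lineage.

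RNA was measured by 3′ tag sequencing, which reads only the 3′ ends of transcripts, so a longer transcript does not give more counts. Totals ran from 1184609 to 1817028 counts per well, and levels are given as CPM, counts scaled to that total. A floor of 3 counts corresponded to 1.65 to 2.53 CPM. Oligodendrocyte markers were abundant in every well, with summed levels of 6851 to 14341 CPM over 10 genes. The cultures also held astrocyte markers at 4032 to 6377 CPM over 8 genes. Markers of microglia, 13 genes, summed to 221 to 373 CPM in the wells of experiment 1 and to 2825 to 3531 CPM in those of experiment 2. In a mixed culture, fewer cells of a type and less RNA per cell cannot be told apart. Neutrophil markers were close to absent: 0 of 6 could be tested, their sum was at most 19.2 CPM, and S100a9 was at 0 in every well.

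Cxcl5 (ENSMUSG00000029371, on chromosome 5) heads the set. At 30 mM its level was 82.5 CPM in the lowest well, 118 at the median and 134 in the highest. In the controls of experiment 1 these values were 33.0, 39.5 and 57.8 CPM. The lowest ethanol well, replicate 6, therefore lay above the highest control well, and replicate 1 was the other low one, at 91.2 CPM. Of all tested genes, 4.98% had ethanol and control wells that did not overlap at 30 mM. Behind these levels were 102 to 215 counts per ethanol well and 53 to 74 per control well. The means were 111 ± 20.0 CPM (SD, n = 6) with ethanol and 41.6 ± 9.05 CPM (SD, n = 6) without it. The log2 fold change was 1.43 (SE 0.118), which is 2.70-fold. Because the set is headed by Cxcl5 on the strength of this change, its ethanol values are a description and carry no test.

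In experiment 2 the shift of Cxcl5 was smaller. At 10 mM its level was 58.8 CPM in the lowest well, 64.7 at the median and 76.8 in the highest, against 31.9, 44.1 and 61.4 CPM in the controls of that experiment. The groups overlapped, with 4 of 6 ethanol wells above the highest control well, replicate 5. The means were 66.1 ± 7.08 and 45.3 ± 12.1 CPM (SD, n = 6 each), and the log2 fold change was 0.54 (SE 0.111), or 1.46-fold. The change at 30 mM exceeded that at 10 mM by 0.88 (SE 0.174) on the log2 scale, given as a description. Between the control groups the log2 difference of Cxcl5, experiment 1 minus experiment 2, was -0.09 (SE 0.127, 95% interval -0.34 to 0.16, edgeR adjusted p = 0.592).

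**Figure D1:**
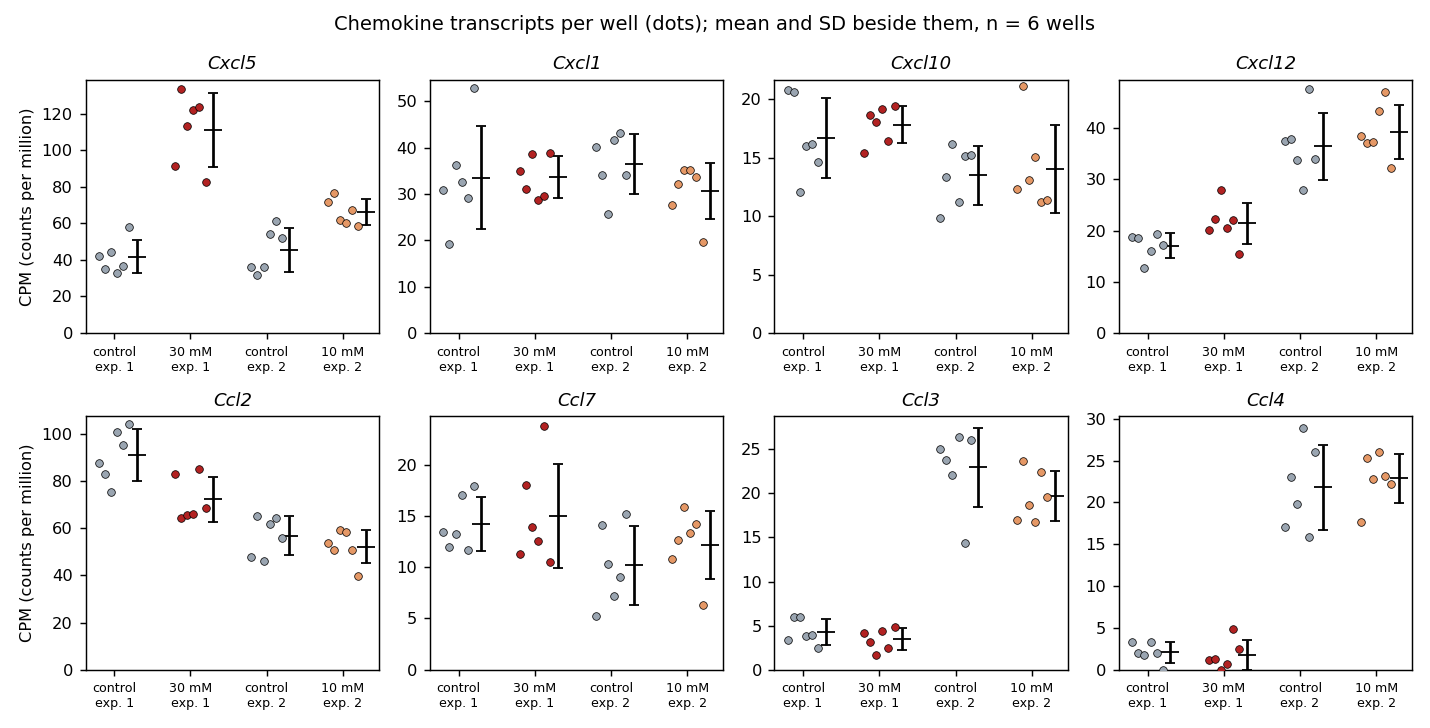
Level of each of the 8 chemokine transcripts in every well (CPM, 1 dot per well), with the mean and SD beside the dots, for the 4 groups of 6 wells. Cxcl5 lay between 82.5 and 134 CPM at 30 mM and between 33.0 and 57.8 CPM in its controls. For Ccl3 and Ccl4 the wells were separated by experiment, and those with and without ethanol overlapped within each experiment.

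Among all tested genes, 1280 of 13235 (9.67%) were called at 30 mM, with an adjusted p under 0.05 by the quasi-likelihood test of edgeR: 3.02% were higher and 6.65% lower. Of the members, 6 could be tested there and 2 passed: Cxcl5, higher, and Ccl2, lower. Ccl3 and Ccl4 fell below the low-count filter in experiment 1 and were not tested at 30 mM. At 10 mM all 8 were tested and Cxcl5 alone passed, where 89 of 13538 genes (0.657%) did. For the difference between the doses, Cxcl5 was again the 1 member of 8 that passed, beside 481 of 14655 genes (3.28%). The differences of the other 5 members with a test at both doses ran from -0.23 for Ccl2 to 0.26 for Cxcl1. Nothing is read from the counts that rest on Cxcl5, which the choice of genes used. The median log2 fold change over the tested members was 0.08 at 30 mM and 0.07 at 10 mM, against 0.02 and -0.00234 over all tested genes.

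**Figure D2:**
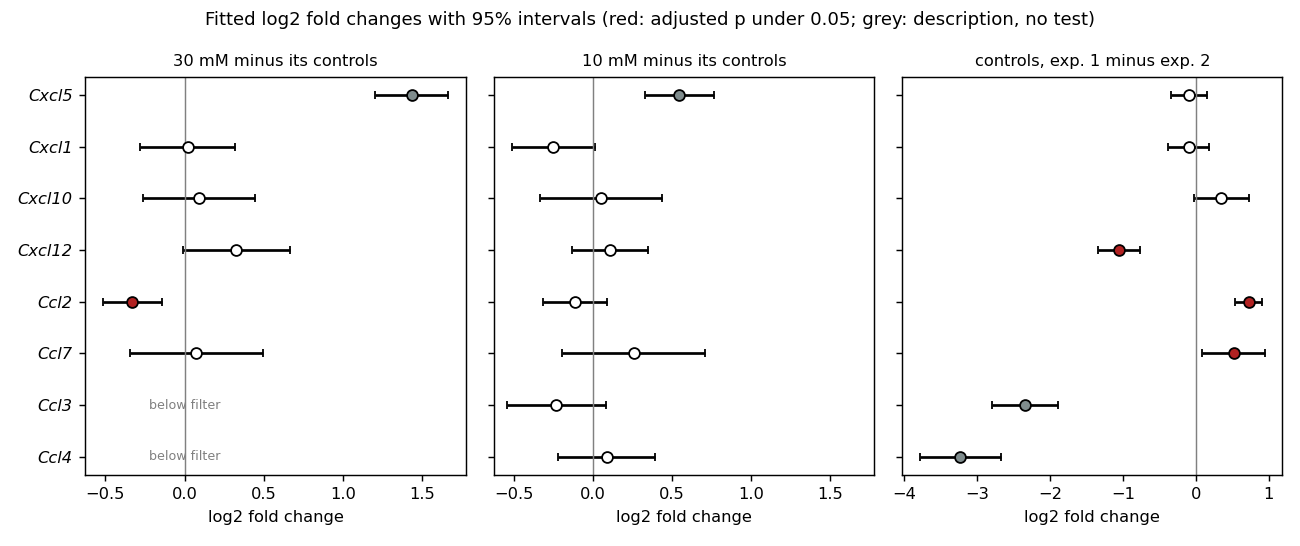
Log2 fold changes with 95% intervals of the chemokines at 30 mM (6 genes, Ccl3 and Ccl4 being below the filter), at 10 mM and between the control groups (experiment 1 minus experiment 2, 8 genes each), with red for an adjusted p under 0.05 and grey for values given with no test (Cxcl5 in the ethanol panels, Ccl3 and Ccl4 between controls). Apart from Cxcl5, the points in the ethanol panels lie between -0.33 and 0.33, while Ccl4 at -3.23 and Ccl3 at -2.34 lie far from 0 between the controls. Ccl7 is drawn red between the controls, but its value there is a description too.

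Cxcl1 (ENSMUSG00000029380), the other Cxcr2 ligand of the set and also on chromosome 5, did not pass the test at either dose. At 30 mM its lowest, median and highest wells were at 28.7, 33.0 and 38.8 CPM. In the controls they were at 19.3, 31.6 and 52.9 CPM, so every ethanol well lay within the range of the control wells. The log2 fold change was 0.02 (SE 0.153, 95% interval -0.28 to 0.32, edgeR adjusted p = 0.957). At 10 mM the wells ran from 19.6 to 35.3 CPM around a median of 32.9, against 25.7 to 43.2 around 37.1 in the controls. That log2 fold change was -0.25 (SE 0.133, 95% interval -0.51 to 0.01, edgeR adjusted p = 0.533).

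The ratio of Cxcl5 to Cxcl1 counts within a well, which does not depend on the library size, also separated the groups. It was 2.13 in the lowest 30 mM well, 3.57 at the median and 4.30 in the highest, against 1.02, 1.25 and 1.83 in the controls. At 10 mM it was 1.70, 2.20 and 3.00, against 0.902, 1.35 and 1.53 in the controls of experiment 2. The ethanol and control wells did not overlap in this ratio in either experiment. Since Cxcl5 is its numerator, the ratio is a description too.

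**Figure D3:**
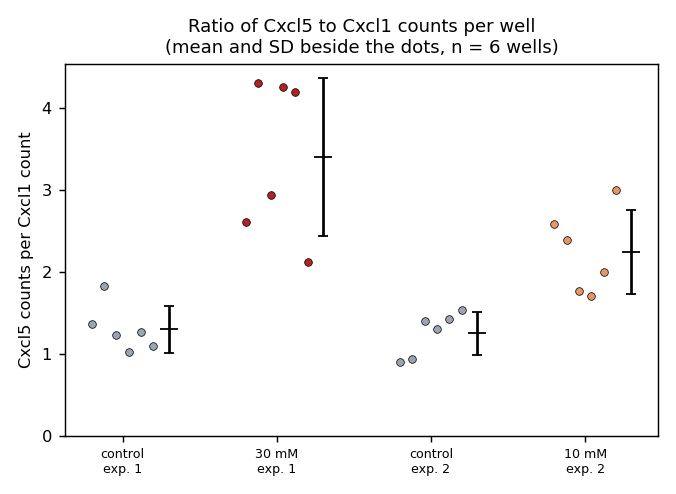
Cxcl5 counts per Cxcl1 count in each well (dots), with the mean and SD beside them, n = 6 wells per group. All 6 wells at 30 mM (2.13 to 4.30) and all 6 at 10 mM (1.70 to 3.00) lay above every control well of their own experiment (up to 1.83 and 1.53).

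Cxcl10 (ENSMUSG00000034855), the interferon-responsive member, did not pass the test in any of the comparisons. Its wells ran from 15.4 to 19.4 CPM at 30 mM and from 12.1 to 20.8 CPM in the controls, with medians of 18.3 and 16.1. At 10 mM the wells ran from 11.2 to 21.1 CPM and in the controls from 9.86 to 16.2 CPM, with medians of 12.7 and 14.3. The groups overlapped at both doses, and the log2 fold changes were 0.09 (SE 0.182, 95% interval -0.26 to 0.45, edgeR adjusted p = 0.808) and 0.05 (SE 0.197, 95% interval -0.34 to 0.44, edgeR adjusted p = 0.963). Cxcl10 overlaps Art3 on the opposite strand in GENCODE M21. Whether the counting used strand is not given in the sources used here, so reads of that pair may be mixed.

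The stretches upstream of Cxcl1 and Cxcl10 are shown because they are the members for which a match to the NF-κB consensus was found. RefSeq windows of 300 bases, from 250 before to 50 after the start, were at hand for 4 members: Cxcl1, Cxcl10, Cxcl12 and Ccl3. Cxcl5, Ccl2, Ccl4 and Ccl7 had no entry. The 250 bases upstream of the start are printed 5′ to 3′ in the direction of the gene, on build GRCm38.p6. Cxcl1 is at chr5:90890995-90891244 on the plus strand and Cxcl10 at chr5:92348890-92349139 on the minus strand. Capitals mark matches to the NF-κB consensus and, in Cxcl10, the first capital run, a match to the core of the interferon-stimulated response element, GAAA repeats separated by any 2 bases.
Cxcl1: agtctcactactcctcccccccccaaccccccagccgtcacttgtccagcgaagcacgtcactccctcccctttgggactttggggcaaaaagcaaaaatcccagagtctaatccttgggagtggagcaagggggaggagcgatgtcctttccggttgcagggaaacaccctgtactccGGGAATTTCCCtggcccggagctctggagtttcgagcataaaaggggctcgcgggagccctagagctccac
Cxcl10: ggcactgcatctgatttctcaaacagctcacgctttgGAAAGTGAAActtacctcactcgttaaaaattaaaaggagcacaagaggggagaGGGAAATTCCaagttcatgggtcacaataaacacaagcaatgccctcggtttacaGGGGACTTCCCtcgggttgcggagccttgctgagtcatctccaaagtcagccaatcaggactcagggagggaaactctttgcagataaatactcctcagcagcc

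Positions are counted back from the start of transcription, the base before it being -1. The capital run of Cxcl1 holds overlapping consensus matches at -71 to -62 and -70 to -61. Cxcl10 has a match at -159 to -150 and overlapping matches at -104 to -95 and -103 to -94, with the interferon element at -213 to -204. Both strands were searched. Of 32851 windows of 300 bases, 8.46% held the NF-κB consensus, 3.44% the interferon element and 13.6% held TATAAA, which was found in none of the 4 windows. The windows of Cxcl12 and Ccl3 held no match to any of these. A match describes the letters and shows no binding, and the transcripts of both printed genes did not pass the test at either dose.

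Cxcl12 (ENSMUSG00000061353, on chromosome 6), which guides precursor cells in development, did not pass at either dose but differed between the controls. Its wells ran from 15.4 to 27.9 CPM around a median of 21.4, against 12.7 to 19.4 CPM around 17.9 in the controls. The groups overlapped in part, and the log2 fold change was 0.33 (SE 0.174, 95% interval -0.01 to 0.67, edgeR adjusted p = 0.248). At 10 mM the wells ran from 32.3 to 47.1 CPM around 37.9, against 28.0 to 47.7 CPM around 35.7, with a log2 fold change of 0.11 (SE 0.121, 95% interval -0.13 to 0.35, edgeR adjusted p = 0.835). All 6 controls of experiment 1 lay below all 6 of experiment 2, a log2 difference of -1.05 (SE 0.149, edgeR adjusted p = 7.03e-09).

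Ccl2 (ENSMUSG00000035385, on chromosome 11), the main monocyte attractant of the set, fell at 30 mM. Its lowest, median and highest ethanol wells were at 64.6, 67.5 and 85.3 CPM, against 75.3, 91.5 and 104 CPM in the controls. Replicates 1 and 5 with ethanol lay inside the control range and the other 4 ethanol wells below it. The means were 72.2 ± 9.34 and 91.0 ± 11.0 CPM (SD, n = 6 each), and the log2 fold change was -0.33 (SE 0.0957, 95% interval -0.52 to -0.14, edgeR adjusted p = 0.0205). The edgeR adjusted p rose above 0.05 when 30 mM replicate 3 (0.0677), replicate 4 (0.0607) or replicate 6 (0.053), or control replicate 4 (0.0749), was left out, so the call does not hold without any 1 of these wells. At 10 mM the wells ran from 39.9 to 59.3 CPM against 46.3 to 65.3 CPM, a log2 fold change of -0.11 (SE 0.104, 95% interval -0.32 to 0.09, edgeR adjusted p = 0.778). The changes at the 2 doses differed by -0.23 (SE 0.145, edgeR adjusted p = 0.436), so a difference between doses was not shown. Ccl2 overlaps Gm17268 on the opposite strand, a gene with 0 counts in every well.

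Markers of some other cells moved at 30 mM in the same direction as Ccl2. Of the fibroblast markers, 4 of 6 passed the test as lower, where 6.65% of all tested genes passed as lower and 3.02% as higher. Their sum was 237 to 289 CPM with ethanol against 392 to 600 CPM without it. Of the mural markers, 3 of 7 tested were lower (Acta2, Cnn1 and Tagln), with sums of 150 to 288 against 516 to 626 CPM. The fall was not shared by the whole mural list: 3 of the 7 had positive log2 changes, and the median was -0.08. Astrocyte markers moved the other way, as Cxcl5 did: 5 of 8 were higher, with sums of 5282 to 6377 CPM against 4032 to 4716 CPM. Oligodendrocyte markers were higher in 6 of 10 cases and lower for Olig1, and their sum reached 14341 CPM in replicate 1. Of 6 neuron markers 1 was lower. Within experiment 2, where 0.657% of all genes passed, 0 of 8 astrocyte markers did (2 at an unadjusted edgeR p under 0.05). Of 6 fibroblast markers 2 passed, Col3a1 and Dcn, both lower. There 2 of 10 oligodendrocyte markers passed, Mag and Cnp, both higher, and of 6 neuron markers Tubb3 was higher and Stmn2 lower. The part of these cells in the levels of Cxcl5 and Ccl2 was not tested.

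Ccl7 (ENSMUSG00000035373), which shares Ccr2 with Ccl2 and lies on the same chromosome, did not pass at either dose. At 30 mM it ran from 10.5 to 23.8 CPM around a median of 13.2, against 11.7 to 17.9 CPM around 13.3, with replicate 5 the high well. The log2 fold change was 0.07 (SE 0.214, 95% interval -0.35 to 0.49, edgeR adjusted p = 0.878). At 10 mM it was 6.33 to 15.9 CPM against 5.26 to 15.2 CPM, with a log2 change of 0.26 (SE 0.230, edgeR-adjusted p = 0.772). With 13 to 29 counts per well at 30 mM, only large changes of Ccl7 were within reach.

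Ccl3 and Ccl4 (ENSMUSG00000000982 and ENSMUSG00000018930), the ligands typical of microglia, were near the floor throughout experiment 1. Ccl3 had 2 to 7 counts per well at 30 mM and 3 to 10 in the controls, that is 1.64 to 4.85 CPM around 3.62 and 2.44 to 6.03 CPM around 3.87. Ccl4 had 0 to 6 counts per well in both groups, with 1 well at 0 in each, and medians of 1.21 and 1.97 CPM. No change of either was detectable at this depth at 30 mM. With a looser filter of at least 3 counts in 6 wells, the log2 fold changes were -0.33 (SE 0.378, edgeR adjusted p = 0.687) for Ccl3 and -0.36 (SE 0.553, edgeR adjusted p = 0.777) for Ccl4. In experiment 2 both were well measured. Ccl3 was at 16.8 to 23.6 CPM with 10 mM ethanol and 14.4 to 26.4 CPM without it, a log2 fold change of -0.23 (SE 0.159, 95% interval -0.54 to 0.08, edgeR adjusted p = 0.666). Ccl4 was at 17.7 to 26.0 and 15.9 to 28.8 CPM, a log2 change of 0.09 (SE 0.156, edgeR-adjusted p = 0.906). The groups overlapped for both.

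Between the control groups 5 of the 8 members passed, where 5880 of 13479 genes (43.6%) did, 21.3% higher and 22.3% lower in experiment 1, and 18.9% had wells that did not overlap, so nothing is read from that share. Ccl3 and Ccl4 entered that test only through the wells of experiment 2, where they were high, so their fitted log2 differences, -2.34 (SE 0.232) and -3.23 (SE 0.284), are given as a description with no p. All 6 control wells of experiment 1 were below all 6 of experiment 2 for both. Ccl2 was higher in all 6 control wells of experiment 1, by 0.72 (SE 0.0951, edgeR adjusted p = 7.84e-10). Ccl7 was higher by 0.52 (SE 0.219) with overlapping wells. At 8 to 21 counts per well, experiment 2 alone would not have brought it past the low-count filter, so that value carries no p. Cxcl10 (0.35, SE 0.190, edgeR adjusted p = 0.126) and Cxcl1 (-0.10, SE 0.141, edgeR adjusted p = 0.595) did not pass. Of 13 microglia markers, 8 could be tested within experiment 1, and each of these 8 was lower in its controls than in those of experiment 2, with log2 differences of -4.42 (Trem2) to -1.35 (Ptprc). Their part in the levels of Ccl3 and Ccl4 was not tested.

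**Figure D4:**
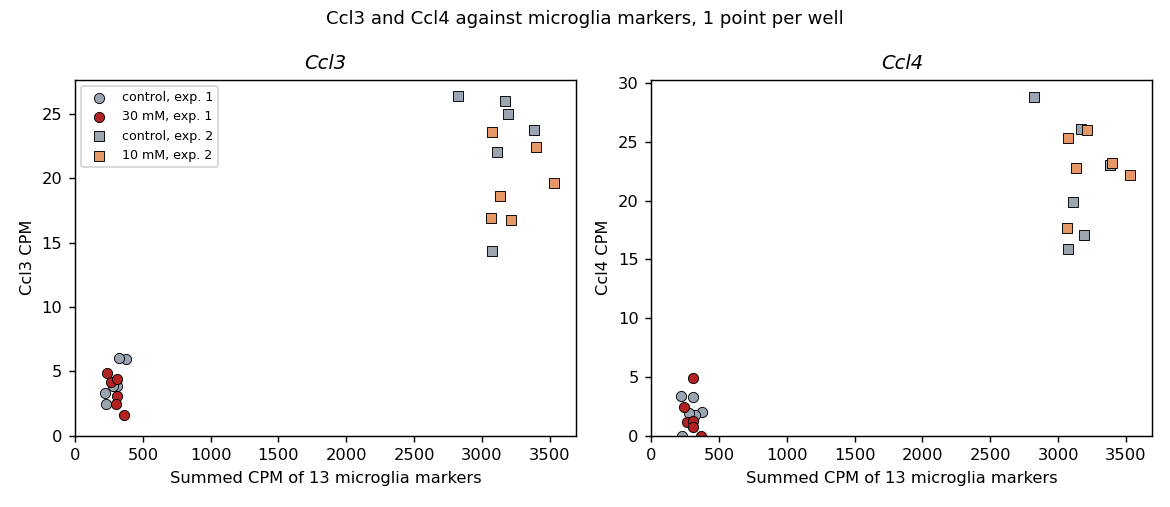
Levels of Ccl3 and Ccl4 (CPM) against the summed level of 13 microglia markers (CPM), 1 point per well. The wells form separate clusters by experiment, with sums of at most 373 CPM in experiment 1 and at least 2825 CPM in experiment 2, so no correlation over all wells is given.

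The top of the order of the members by level differed between ethanol and control wells. In every control well of both experiments, 12 in all, Ccl2 exceeded Cxcl5, and in all 12 ethanol wells Cxcl5 exceeded Ccl2. This order and the shares that follow rest on the ethanol values of Cxcl5, which the choice of genes used, so they are a description too. Cxcl5 took 34.0 to 45.6% of the members' counts at 30 mM around a median of 40.4%, against 14.9 to 22.1% around 18.5% in the controls. At 10 mM it took 22.4 to 28.7%, against 13.1 to 22.6%. Summed over the 8 genes, the median level was 277 CPM at 30 mM and 217 in its controls, and 266 CPM at 10 mM and 251 in its controls. Below these, Cxcl1, Cxcl12, Cxcl10 and Ccl7 followed in that order by median in both groups of experiment 1. Neighbours in that order overlapped in their wells, except that at 30 mM the lowest Cxcl1 well (28.7 CPM) lay just above the highest Cxcl12 well (27.9 CPM). In the controls of experiment 2, Cxcl1 (median 37.1 CPM) and Cxcl12 (35.7) overlapped in their wells. Ccl3 (24.4) and Ccl4 (21.4) stood above Cxcl10 (14.3) and Ccl7 (9.69) there.

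Some genes followed Cxcl5 over the 24 wells once each well was centred on the mean of its experiment. The 5 with the highest Pearson r of log2 CPM, among 13350 genes, were C3 (0.853), Serpina3n (0.851), Chil1 (0.841), Hist1h2bc (0.821) and Plpp3 (0.816). C3 is the central complement component, Serpina3n a protease inhibitor and Chil1 a chitinase-like secreted protein, all known from reactive astrocytes. Their r values include the shift between ethanol and control wells, and they are a description with no p. C3 was at 938 to 1267 CPM at 30 mM against 466 to 609 CPM in its controls, and at 739 to 799 CPM at 10 mM against 526 to 623 CPM. Its log2 fold changes, 1.01 and 0.41, thus stood beside 1.43 and 0.54 for Cxcl5. Chil1 had 1.12 and 0.10, and Serpina3n 0.49 and 0.09. With wells centred on the mean of their own group, which removes the ethanol shift, the list was another: Fam199x (0.739), Snhg18 (0.702), Glod4 (0.684), Morc3 (0.664) and Gm43359 (0.655). These had log2 fold changes of -0.52 to 0.19 at 30 mM.

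Of 29 other chemokine ligands, 9 could be tested at each dose and the rest were too low. At 30 mM 4 passed and all 4 were lower (Pf4, Ccl6, Ccl9 and Cx3cl1), where 9.67% of all genes passed, 6.65% lower and 3.02% higher. Pf4, a platelet and macrophage chemokine, was at 26.6 to 52.2 CPM around 40.7 with ethanol and 43.2 to 103 CPM around 78.7 without it. Its log2 fold change was -0.91 (SE 0.140, edgeR adjusted p = 8.48e-06). Ccl9 fell from 18.2 ± 5.01 to 9.63 ± 2.53 CPM (SD, n = 6 each) with no overlap of wells, a log2 change of -0.94 (SE 0.225). Ccl6 had a log2 change of -1.14 (SE 0.292) on 4 to 9 counts per ethanol well. Neither would have passed the low-count filter on its ethanol wells alone, so both changes are given as descriptions with no p. Nothing is read from the count of 4, which includes them. Cx3cl1, the membrane-bound ligand of Cx3cr1, had -0.38 (SE 0.128, edgeR adjusted p = 0.0481), a call lost in 8 of 12 fits that left out a well. The median over the list was -0.38, against 0.02 over all genes.

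At 10 mM 0 of the 9 passed in edgeR or limma voom, and the unadjusted edgeR p was under 0.05 for Pf4, Ccl9 and Cx3cl1, all lower (-0.15, -0.28 and -0.28). For the difference between doses 2 of 10 tested passed, Pf4 and Ccl6, beside 3.28% of all genes. Pf4 differed by -0.78 (SE 0.150, edgeR adjusted p = 0.000523). The difference of Ccl6, -1.12 (SE 0.317), uses the 30 mM wells that were too low for the filter, so it carries no p. The call for Ccl6 was lost in 4 of 24 fits that left out a well and in limma voom. Between the controls 7 of 10 passed, beside 43.6% of all genes: Cxcl14 and Cx3cl1 were higher in experiment 1, and Pf4, Ccl6, Ccl9, Ccl5 and Cxcl16 were lower, with log2 differences of -2.08 to -0.95. Ccl5 entered that test only through experiment 2, and Ccl6 would not have entered it on the wells of experiment 1 alone. Pf4, Ccl6, Ccl9 and Ccl5 thus shared the direction of the microglia markers there, whose part in their levels was not tested. At 30 mM the summed microglia markers were at a median of 306 CPM with ethanol and 293 without. Of 8 tested, 1 passed, Cx3cr1, which was higher, though its change is a description for its low control counts.

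**Figure D5:**
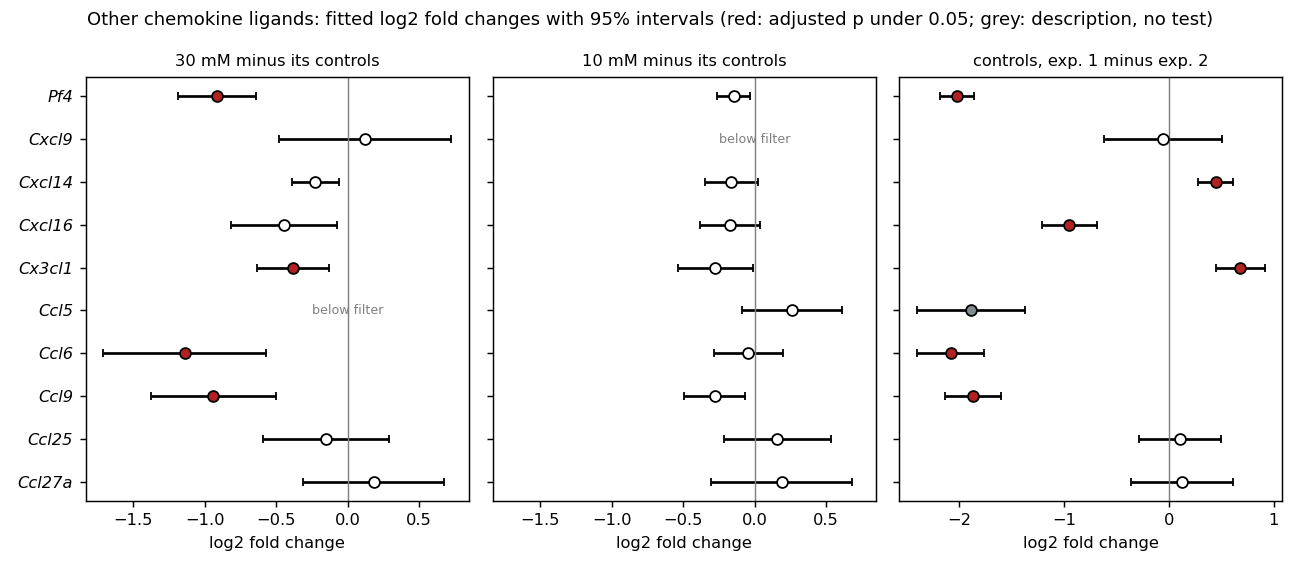
Log2 fold changes with 95% intervals of the other chemokine ligands that could be tested, at each dose and between the control groups, with red for an adjusted p under 0.05 and grey for a gene that entered the control comparison only through experiment 2. At 30 mM Pf4 (-0.91), Ccl9 (-0.94) and Ccl6 (-1.14) lie left of 0. Ccl9 and Ccl6 at 30 mM, and Ccl6 between the controls, are drawn red, but these values are descriptions.

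The receptors of the members were mostly faint. Cxcr2, the receptor of Cxcl5 and Cxcl1, summed to 1 count over the 6 wells at 30 mM and 3 in the controls, and to 9 and 15 in experiment 2, too few to test. Cxcr3 summed to 0, 0, 2 and 3 counts. Cxcr4 was at a median of 19.0 CPM at 30 mM and 24.6 in the controls (log2 fold change -0.47, SE 0.162, edgeR adjusted p = 0.0579). Ackr3 differed by -0.11 (edgeR adjusted p = 0.701), Ackr1, a decoy receptor of several chemokines, by 0.16 (edgeR adjusted p = 0.773) and Ccr2 by -0.01 (edgeR adjusted p = 0.994). Of 23 receptors, 6 were tested at 30 mM and 8 at 10 mM, and Cx3cr1 alone passed, higher at both, beside 9.67% and 0.657% of all genes. Its call at 30 mM is not read as a result, since its control wells there were too low. The change of Cx3cr1 was not shown to differ between the doses (0.76, SE 0.258, edgeR adjusted p = 0.0837).

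Cx3cr1, the fractalkine receptor of microglia, was at a median of 12.4 CPM at 30 mM against 5.26 CPM, a log2 fold change of 1.07 (SE 0.292). Its control wells, at 4 to 14 counts, would not have brought it past the low-count filter alone, so this change is given as a description with no p. At 10 mM it was at 142 against 117 CPM, a log2 change of 0.29 (SE 0.0736, edgeR-adjusted p = 0.0357) with all ethanol wells higher, though 7 of 12 fits that left out a well lost that call. Between the controls 3 of 7 tested receptors passed, beside 43.6% of all genes, all lower in experiment 1: Cx3cr1 (-4.36), Ccr1 (-1.40) and Ccr2 (-0.79, a call lost without replicate 5 of experiment 2). None of these 3 would have passed the low-count filter on the control wells of experiment 1 alone, so the values are descriptions.

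The signaling genes upstream of chemokines came next. Of 23 NF-κB pathway genes, 21 were tested, and at 30 mM 1 passed, beside 9.67% of all genes: Nfkbib, an inhibitor of NF-κB, had a log2 change of -0.35 (SE 0.107, edgeR-adjusted p = 0.0317). That call was lost in 6 of 12 fits that left out a well. Nfkbia, an inhibitor that NF-κB itself induces, was at 320 to 360 CPM against 291 to 322 CPM, overlapping narrowly, with a log2 change of 0.18 (SE 0.0612, edgeR-adjusted p = 0.0577). At 10 mM 0 of 21 passed in edgeR or limma voom, and 1 had an unadjusted p under 0.05 (Rela, a subunit of NF-κB, at 0.21). Medians over the list were 0.01 and 0.11. For the difference between the doses Nfkbib alone passed (-0.50, SE 0.148, edgeR adjusted p = 0.0425), a call lost in 13 of 24 fits that left out a well. Between the controls 6 of 21 passed, beside 43.6% of all genes, and 5 of them were higher in experiment 1. Among these were Nfkb2, a subunit of NF-κB, at 0.67 (SE 0.152, edgeR adjusted p = 0.000163), the kinase Map3k7 at 0.33 and Ikbkg, a subunit of the IκB kinase, at 0.41. Irak4, a kinase of interleukin 1 signaling, had a log2 difference of -0.52 (SE 0.149, edgeR adjusted p = 0.00307). The calls of Nfkbia (0.14) and Nfkbib (0.28) were lost in some of the 12 fits that left out a control well, 5 and 2 of them.

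Of 28 upstream cytokines and cytokine receptors, 17 were tested at 30 mM and 2 passed, beside 9.67% of all genes. Il17rc, a subunit of the interleukin 17 receptor, fell from 35.9 ± 3.40 to 23.8 ± 4.34 CPM (SD, n = 6 each; log2 fold change -0.59, SE 0.140, edgeR adjusted p = 0.00339). Ifngr1, which binds interferon gamma, was higher by 0.35 (SE 0.113, edgeR adjusted p = 0.038), a call lost in 6 of 12 fits that left out a well. At 10 mM 0 of 17 passed in edgeR or limma voom, and 2 had an unadjusted p under 0.05 (Il1r1 at -0.25 and Il6ra at -0.27). For Il17rc the fitted difference between the doses was -0.95 (SE 0.275), with a call lost in 7 of 24 fits that left out a well. Its fitted difference between the controls, experiment 1 minus experiment 2, was 2.11 (SE 0.177). At 5 to 17 counts per well, the controls of experiment 2 alone would not have brought Il17rc past the low-count filter. Both differences use these wells, so neither carries a p. Between the controls 11 of 17 passed, 4 higher and 7 lower in experiment 1, beside 43.6% of all genes, 21.3% higher and 22.3% lower. Csf1, a growth factor of microglia, was higher at 0.79 (SE 0.0691, edgeR adjusted p = 6.67e-17), and so was Il6st, the shared signaling subunit of interleukin 6 receptors, at 0.30. Il17ra, a subunit of the interleukin 17 receptor, was lower at -0.72 and Il1r1, the interleukin 1 receptor, at -0.53. Tnfrsf1b, a receptor of tumor necrosis factor, had a fitted difference of -1.92 but entered the test only through experiment 2. Tnf, Il1a, Il1b and Il17a, the classic inducers of these chemokines, had 0 to 6 counts per well and could not be tested.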

How the data were processed

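The 24 wells were sequenced by 3′ tag sequencing with single-end reads of 100 bases on a NovaSeq, per the labels' protocols. Raw counts per gene were deposited, with 1 column per well. The submitters' processing notes name cutadapt 1.18, STAR and the build GRCm39. The counter, annotation, use of strand and removal of PCR duplicates are not given in the sources used here. Symbols were matched by identifier for 52083 of 55359 rows (94.1%). Groups came from the labels, and replicate numbers from the descriptions, since titles number the controls of experiment 2 differently. Pairs of wells of a group differed by more than counting noise (chi-square per degree of freedom 1.07 to 2.88).

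Counts were tested with edgeR 4.0.16 (R 4.3.3) by the quasi-likelihood test with TMM normalization, filterByExpr at a minimum of 10 counts and Benjamini-Hochberg adjustment over all tested genes, at an adjusted p threshold of 0.05. Each experiment had a fit of its own. An interaction term over the 24 wells gave the difference between doses, and a further fit compared the control groups. CPM values use the total count of the well. Intervals are the log2 fold change ± 1.96 SE, and floors cover counting error only. Scripts were tested on simulated data. Alternatives were DESeq2 size factors, no factors, other low-count filters, DESeq2 1.42.0, limma voom (limma 3.58.1), a joint fit, a replicate block and leaving out each well.

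The members and the gene lists were chosen with earlier results of these data known. Named were all members, their receptors (1 item is not reported here), and per list up to 6 genes with the smallest p among those called with a mean log2 CPM of at least 1. To these were added the 5 genes most correlated with Cxcl5 (log2 CPM with a prior count of 2, mean at least 3), under each of 2 centrings. Marker genes, Rela, Il6ra, Ifngr1 and Cxcl14 are named outside this rule, as examples. Sequences are from RefSeq (GRCm38.p6) and gene overlaps from GENCODE M21 on GRCm38, not the build of the counts.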

Additional observations from a re-analysis of the deposited data

Results flagged for a closer look

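The Ccl3 level of 14.4 CPM in replicate 5 of the controls of experiment 2 stood apart from the other 5 wells of its group, by the gap to its nearest neighbour over the range of the group (Dixon's criterion). It was the 1 such value among 40 sets of wells examined, where chance gives about 1 in 20, or 2.0.

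The change at 30 mM and that at 10 mM differed for 9 named genes in the interaction test, which 481 of 14655 genes (3.28%) passed. Genes of the lists were named for a call in any of the comparisons, this one included, so nothing is read from the number 9. The log2 differences, 30 mM minus 10 mM, were 1.00 for Chil1, 0.58 for C3, 0.88 for Cxcl5, 0.39 for Serpina3n, 0.39 for Plpp3, -0.78 for Pf4, -1.12 for Ccl6, -0.95 for Il17rc and -0.50 for Nfkbib. For Cxcl5 and the genes chosen for their likeness to it, these values are descriptions. So are those of Ccl6 and Il17rc, which were each too low for the low-count filter in some group of wells. With no low-count filter the adjusted p of edgeR was above 0.05 for Serpina3n (0.0705) and Plpp3 (0.0526). Dose and experiment cannot be told apart in any of them.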

How the results depend on the processing

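Over 12 fits that each left out 1 well, 953 to 1563 genes were called at 30 mM, 37 to 95 at 10 mM and 5367 to 6250 between controls, and 329 to 759 over 24 such fits for the difference between doses. The other alternatives gave 954 to 1599 genes at 30 mM and 441 to 500 for the difference, and the joint fit gave 21 at 10 mM. The count at 10 mM fell most without replicate 5 (37), 6 (46) or 4 (57) of the controls or replicate 2 (40) or 4 (45) with ethanol. The count for the difference rose most without 30 mM replicate 1 (759) or 2 (723). Members called at 30 mM numbered 1 to 2 with a well left out. Ccl2 at 30 mM stayed called under the 8 other alternatives (adjusted p = 0.0125 to 0.0415 in edgeR, DESeq2 and limma), and Cxcl5 kept its direction in every fit at both doses (1.36 to 1.52 and 0.47 to 0.65 with a well left out). Signs turned for changes near 0. Cxcl1 at 30 mM was -0.00894 with no filter and -0.000191 with at least 3 counts in 6 wells. The Cxcl10 difference between doses was -0.0251 and -0.00993 under the same settings. With a well left out, the log2 ranges that crossed 0 were -0.0970 to 0.162 for Cxcl1 and -0.0804 to 0.154 for Ccl7 at 30 mM, and -0.0757 to 0.111 for Cxcl10 at 10 mM. For the difference between doses they were -0.0605 to 0.144 for Cxcl10 and -0.208 to 0.0406 for Ccl3, and between controls -0.228 to 0.0199 for Cxcl1 and -0.170 to 0.0154 for Cxcl5. The Ccl7 difference between controls, given as a description, lost its call in 7 of 12 such fits, without normalization factors, in DESeq2 and in the joint fit. The causes were not tested.

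Wells with the same replicate number did not deviate together: of 12 pairs, 1 had a correlation over 0.1 (range -0.176 to 0.242) and 1 was best with its own number. With a replicate block 1208 genes were called at 30 mM, 68 at 10 mM and 461 for the difference, and the members called were 2, 1 and 1. The block was not run between controls, where numbers do not pair wells. DESeq2 gave no adjusted p for the 8 members at 10 mM nor for 4 of them for the difference, so these have no value there. Depth limits Ccl3 and Ccl4 at 30 mM, with 0 to 10 counts per well.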
